A study of Mus musculus with 24 samples.

Results

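The comparison described here sets day 10 against day 3 after pituitary stalk electrical lesion (PEL) in hypothalami of mice given growth hormone (GH). It was chosen by group label, and it takes 6 of the 24 libraries of the series: 3 of PEL_10d-GH and 3 of PEL_3d-GH. The mice of the study were male C57BL/6J, no age or GH dose and schedule was given in the sources used here, and no genetic change was named for any group. PEL cuts the stalk with a knife and adds electrolytic injury. Both groups carried the lesion and both received GH, and they differed in the day of collection. As no GH schedule was given, time after the lesion and length of GH exposure cannot be told apart here. The 3 SHAM-GH libraries, sham-operated, given GH and labelled day 0, served as the reference for levels without the lesion. The same time course without GH, PEL_10d against PEL_3d with 3 libraries each, was used to see where the course under GH differed. No label says whether replicates came from separate animals, so the p-values measure only the spread between these libraries.

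The pituitary stalk carries the axons of the hypothalamic vasopressin and oxytocin neurons to the posterior pituitary, and cutting it severs those axons and damages vessels and glia around them. A brain injury is usually followed by proliferation of microglia and other cells, entry of blood-borne monocytes that clear dead tissue, and a reactive state of astrocytes. These early programmes later recede, while antigen presentation by microglia can persist and oligodendrocytes can form new myelin.

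Total counts per library were 15804115 to 17859115 in PEL_3d-GH, 15833661 to 17285291 in PEL_10d-GH and 15649655 to 17453164 in SHAM-GH, over 22274 genes. Levels are given in CPM, library-size normalised counts after TMM scaling, and they compare 1 gene between libraries, not genes with each other. The hypothalamic transcripts Trh and Avp were present in all 9 libraries, Trh at 60.4 to 148 CPM, and Nkx2-1, a hypothalamic transcription factor, at 15.8 to 33.7 CPM. Counts differed more between PEL_3d-GH-3 and the other day 3 libraries (chi-square per degree of freedom 15.9 and 17.8) than between PEL_3d-GH-1 and PEL_3d-GH-2 (3.88), and PEL_3d-GH-3 held the lowest day 3 level of Mki67, Arg1, Spp1, Lyz2 and Ctsd. PEL_10d-GH-3 held 5408 CPM of Pomc, the precursor of ACTH made in the pituitary and in arcuate neurons, against 23.9 and 30 CPM in the other day 10 libraries. PEL_10d-GH-1 held 27.4 CPM of the hemoglobin gene Hba-a1 against 6.67 and 4.92 CPM. In bulk tissue, fewer cells of a type and less RNA per cell cannot be told apart, and this holds for every gene below.

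Between day 3 and day 10 under GH, most genes of the cell cycle and a part of those of macrophages and lysosomes fell, most genes of myelin and a part of those of neurons rose, and most genes of antigen presentation stayed above sham. Of 14838 genes tested by edgeR's quasi-likelihood test, 2315 passed an adjusted p of 0.05, with 1602 lower (10.8% of those tested) and 713 higher (4.81%) at day 10. These shares stand beside every count of list members below, and a count near them does not set a list apart from other genes. The count depended on single libraries: it was 1169, 967 and 1732 without PEL_10d-GH-1, 2 and 3, and 704, 1070 and 4435 without PEL_3d-GH-1, 2 and 3. In 3110 genes (21% of those tested) every day 10 library lay below every day 3 library, and in 2390 (16.1%) every day 10 library lay above. Against SHAM-GH, day 3 had 3973 genes higher (26.9% of 14743 tested) and 3708 lower (25.2%), and day 10 had 2598 higher (17.7% of 14686) and 1947 lower (13.3%). The comparisons with SHAM-GH share libraries with each other and with the comparison of days, so their values are only set side by side. The median log2 change from day 3 to day 10 over all genes tested was 0.003.

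**Figure D1:**
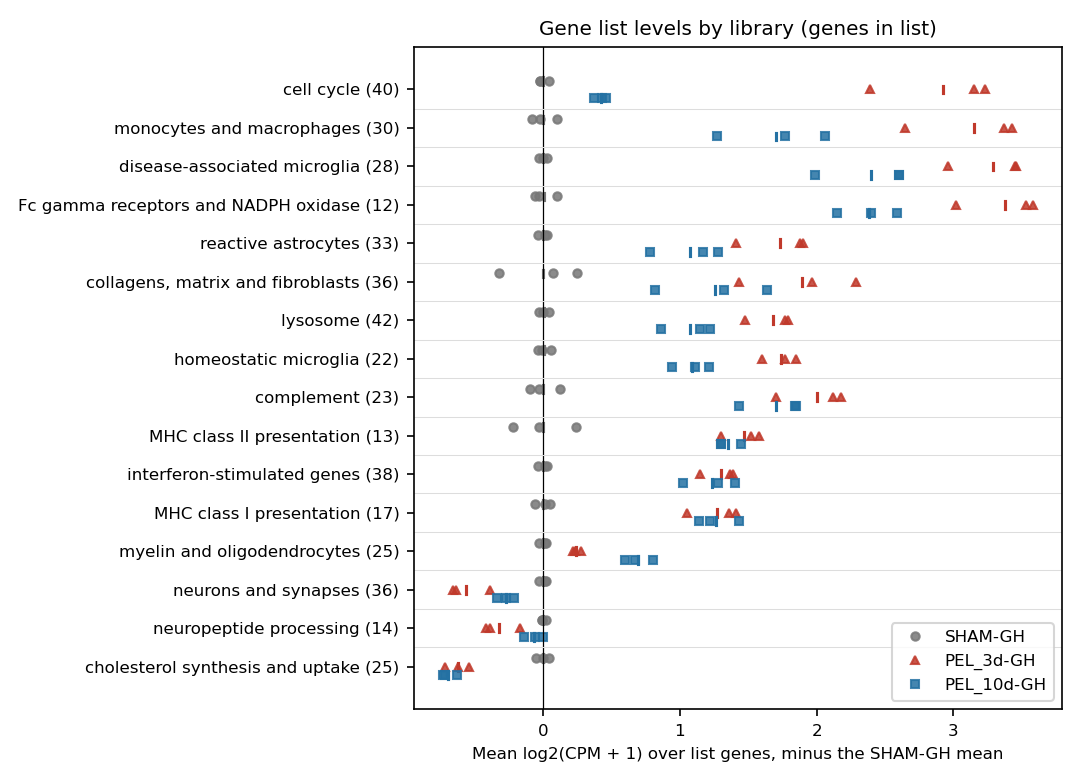
Level of 16 gene lists in each of the 9 GH libraries, as the mean of log2(CPM + 1) over the list's genes minus its mean in SHAM-GH; each point is 1 library. The cell cycle, macrophage and lysosome lists are high at day 3 and stand between day 3 and sham at day 10, and the MHC lists sit at similar levels on both days.

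The 12 largest falls among genes whose libraries did not overlap were those of Arg1, Pbk, Ccnb1, Pimreg, Bub1, Mmp10, Pif1, Pclaf, Ncapg, Depdc1a, Spp1 and Nxpe5. Of these, 8 are genes known from DNA replication or cell division (Pbk, Ccnb1, Pimreg, Bub1, Pif1, Pclaf, Ncapg and Depdc1a). Arg1, the arginase of alternatively activated macrophages, was at 87.5, 85 and 27.5 CPM at day 3 and at 0.293, 0.629 and 0.802 CPM at day 10. In SHAM-GH Arg1 was at 0.193 to 0.313 CPM, so the day 10 libraries lay near the sham range, and the fall was −6.84 ± 0.58 (log2 change ± SE; edgeR adjusted p = 0.000412). Spp1, osteopontin, a secreted matrix protein of macrophages and activated microglia, was at 6375, 6141 and 2925 CPM at day 3 and at 91.9, 240 and 302 CPM at day 10. It fell 24.5-fold (log2 change −4.62 ± 0.47, edgeR adjusted p = 0.000755) and stayed above the 24.7 to 44.2 CPM of SHAM-GH in every library. Mmp10, a secreted matrix protease, was at 3.69, 3.84 and 1.67 CPM at day 3, at 0 to 0.172 CPM at day 10, and at 0 in all 3 SHAM-GH libraries.

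The cell cycle list had the largest median fall of all lists. Many genes of G2 and mitosis are held off in resting cells by a repressor complex that binds a cell cycle homology region (CHR, TTTGAA), and are driven in dividing cells with the help of CCAAT boxes bound by NF-Y. The promoters of 4 such genes are shown as the 250 bases before the RefSeq start on GRCm38.p6, all on the minus strand and written 5′ to 3′, because these genes carry the proliferation signal of day 3. Capitals mark CCAAT and TTTGAA on either strand (ATTGG and TTCAAA on the other).
Mki67, chr7:135716380-135716629: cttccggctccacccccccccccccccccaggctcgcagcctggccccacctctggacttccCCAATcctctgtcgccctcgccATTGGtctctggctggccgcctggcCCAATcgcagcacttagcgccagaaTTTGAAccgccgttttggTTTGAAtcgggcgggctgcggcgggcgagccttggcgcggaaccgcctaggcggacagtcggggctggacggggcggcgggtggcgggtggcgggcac
Cdk1, chr10:69352913-69353162: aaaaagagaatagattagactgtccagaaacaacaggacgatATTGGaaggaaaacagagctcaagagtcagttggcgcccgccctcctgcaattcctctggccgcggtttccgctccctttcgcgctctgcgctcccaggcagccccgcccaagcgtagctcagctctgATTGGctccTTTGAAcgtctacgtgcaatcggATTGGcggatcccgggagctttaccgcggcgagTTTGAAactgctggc
Top2a, chr11:99024190-99024439: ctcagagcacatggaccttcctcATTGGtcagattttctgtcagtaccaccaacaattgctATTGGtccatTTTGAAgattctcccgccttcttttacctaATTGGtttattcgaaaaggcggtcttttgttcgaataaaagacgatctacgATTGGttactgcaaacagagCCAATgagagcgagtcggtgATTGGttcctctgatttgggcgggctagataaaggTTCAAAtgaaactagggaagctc
Ccnb1, chr13:100786487-100786736: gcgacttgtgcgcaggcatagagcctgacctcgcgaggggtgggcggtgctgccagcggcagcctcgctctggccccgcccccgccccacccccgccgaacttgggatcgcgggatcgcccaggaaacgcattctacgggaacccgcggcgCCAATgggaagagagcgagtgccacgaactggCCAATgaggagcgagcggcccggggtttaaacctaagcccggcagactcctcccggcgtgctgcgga
The windows of Mki67 and Cdk1 each held 3 CCAAT and 2 TTTGAA matches, that of Top2a 6 and 2, and that of Ccnb1 2 and 0. Promoters were found for 33 of the 40 cell cycle genes. Of these, 26 (78.8%) held CCAAT and 10 (30.3%) held TTTGAA, against 34.5% and 16.3% of all 27025 promoters of that length. All 10 with TTTGAA also held CCAAT, and 5.73% of all promoters held both motifs. A match is a string of letters, and no binding was measured.

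All 40 genes of the cell cycle list were tested, 38 were lower at day 10 and 0 higher, with a median log2 change of −3.66. In all 40 every day 10 library lay below every day 3 library, beside 21% of all genes tested. Mki67, the proliferation marker Ki-67, was at 105, 115 and 51.8 CPM at day 3 and at 4.5, 3.71 and 4.7 CPM at day 10, a 21.1-fold fall (log2 change −4.40 ± 0.31, edgeR adjusted p = 0.000236). Its day 10 libraries all stood above the 0.451 to 0.981 CPM of SHAM-GH (log2 change 2.58 ± 0.29, edgeR adjusted p = 0.00015). Top2a, the topoisomerase that untangles replicated DNA, was at 109, 108 and 46.7 CPM at day 3 and at 4.68, 2.96 and 4.07 CPM at day 10, against 0.438 to 0.866 CPM in SHAM-GH. Cdk1, the kinase that drives entry into mitosis, fell from 30.2, 30.8 and 16.6 CPM to 1.46, 1.13 and 1.72 CPM (log2 change −4.16 ± 0.29, edgeR adjusted p = 0.000236). Rrm2, which makes deoxynucleotides for replication, fell by 3.78 on the log2 scale and Birc5, survivin, by 3.84. Mcm6, a subunit of the replicative helicase with a basal level in sham tissue, went from 60.5, 62.6 and 38.4 CPM to 15.4, 14.8 and 18.3 CPM, next to 14.2 to 14.4 CPM in SHAM-GH. Pcna, the sliding clamp of DNA polymerase, fell by 1.14 on the log2 scale. The 2 members that did not pass were the cyclins of S phase entry, Ccne1 (log2 change −0.42, edgeR adjusted p = 0.0674) and Ccne2 (−0.79, 0.0544). Of 33 members testable between day 10 and SHAM-GH, 12 were still higher, with a median log2 change of 0.67. The median at day 3 was 4.59 over all 40 members, a set that holds 7 more genes, so the medians are not over the same members. The count of lower members was 38 to 40 whichever library was left out. The summed FPKM of the list, a level per length, was 57.7 to 62.8 in SHAM-GH, 257 to 454 at day 3 and 74.7 to 79.4 at day 10.

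**Figure D2:**
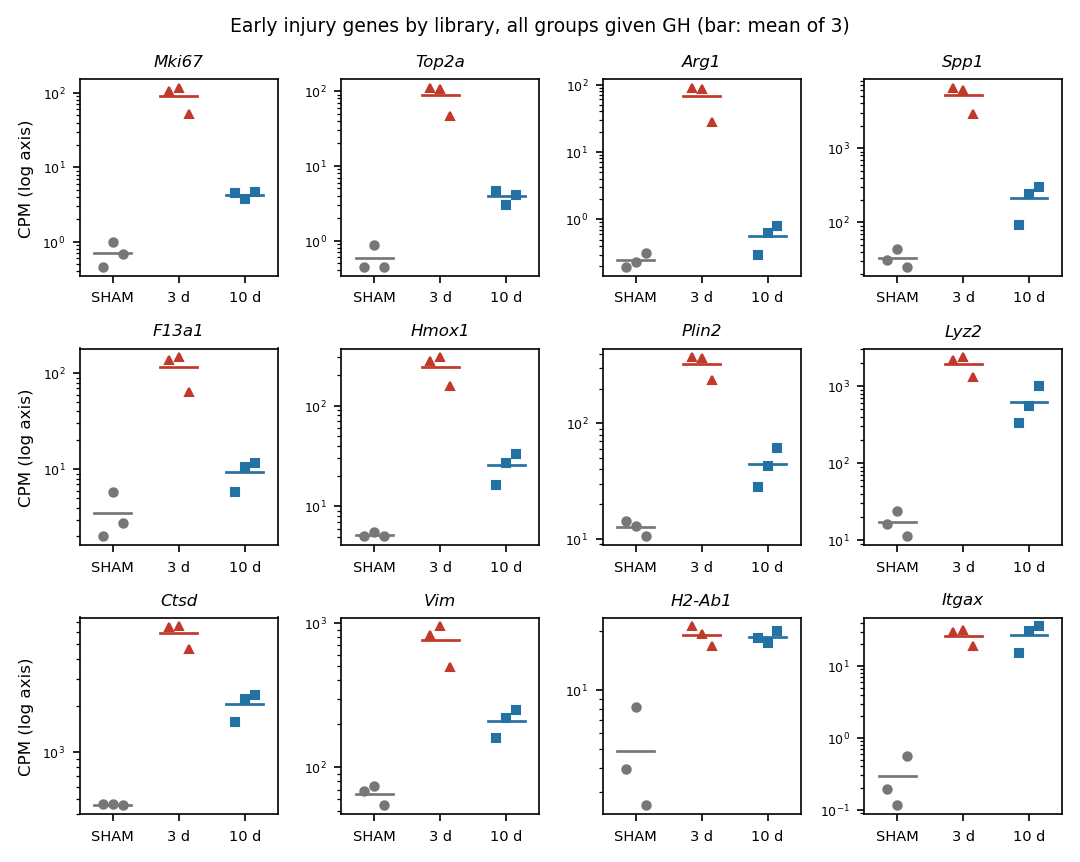
CPM of 12 genes in the 9 GH libraries on a log axis; each point is 1 library. Arg1 lies near the sham level at day 10, Mki67, Top2a, Lyz2, Ctsd and Vim stand between their day 3 and sham levels, and H2-Ab1 and Itgax show overlapping levels at day 3 and day 10.

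A part of the genes of monocytes and macrophages fell, and most stayed above sham. Of 30 tested, 17 were lower at day 10 and 0 higher (median log2 change −1.26), 25 of 28 were still higher than in SHAM-GH (median 2.21), and at day 3 all 29 tested had been higher (median 4.33). The number lower was 14, 14 and 19 without PEL_10d-GH-1, 2 and 3, and 11, 13 and 22 without PEL_3d-GH-1, 2 and 3. F13a1, coagulation factor XIII A of macrophages and platelets, was at 137, 146 and 63.3 CPM at day 3 and at 5.85, 10.5 and 11.6 CPM at day 10 (log2 change −3.64 ± 0.35, edgeR adjusted p = 0.00056). Its sham libraries were at 2 to 5.83 CPM, and the lowest day 10 library lay just above that range. Thbs1, thrombospondin 1, fell by 3.41 on the log2 scale, Msr1, a scavenger receptor, by 3.26, and Pf4, a chemokine of platelets and macrophages, by 3.15. Adgre1, the F4/80 antigen of tissue macrophages, went from 135, 125 and 77.1 CPM to 25.3, 35.6 and 35.7 CPM, above the 4.7 to 6.12 CPM of SHAM-GH. Lyz2, lysozyme of myeloid cells, was at 2196, 2351 and 1297 CPM at day 3 and at 328, 555 and 989 CPM at day 10. It fell 3.14-fold (log2 change −1.65 ± 0.37, edgeR adjusted p = 0.0184) and was still 5.18 ± 0.41 log2 units above SHAM-GH, where it was at 11.2 to 24 CPM. S100a6, a calcium-binding protein of many injured cell types, fell by 1.74 on the log2 scale.

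Microglial genes fell in part. Of 22 genes of homeostatic microglia, 13 were lower and 1 higher at day 10 (median log2 change −0.68), after 20 had been higher at day 3 than in SHAM-GH. Olfml3, a secreted microglial protein, was at 186, 165 and 143 CPM at day 3 and at 73.7, 70.2 and 67.3 CPM at day 10, against 21 to 22 CPM in SHAM-GH. Fcrls, a microglial Fc receptor-like gene, fell by 1.76 and Itgam, the CD11b integrin, by 1.58 on the log2 scale. Tmem119 was at 48.7 to 55.4 CPM at day 3 and 24.8 to 31.4 CPM at day 10, and the purinergic receptor P2ry12 at 47.4 to 55.9 and 24.9 to 33.5 CPM, and both remained above SHAM-GH. The receptors Cx3cr1 (log2 change −0.50) and Csf1r (−0.54) fell least among the members named here.

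Of 28 genes of disease-associated microglia, a state described in degenerating and injured brain, 15 were lower and 0 higher at day 10 (median log2 change −0.85), and the number lower was 9 without PEL_3d-GH-1. Ctsd, the lysosomal protease cathepsin D, was at 6512, 6532 and 4646 CPM at day 3 and at 1575, 2215 and 2350 CPM at day 10, and fell 2.9-fold (log2 change −1.53 ± 0.18, edgeR adjusted p = 0.00118). The day 10 libraries did not reach the 453 to 465 CPM of SHAM-GH. Cd68, a lysosomal glycoprotein of phagocytes, went from 234, 257 and 166 CPM to 57.5, 99 and 106 CPM (log2 change −1.33, edgeR adjusted p = 0.00631), against 3.41 to 5.71 CPM in SHAM-GH. Other members showed no fall that passed the test. Itgax, the CD11c integrin, was at 29.1, 31.2 and 18.8 CPM at day 3 and at 14.9, 31 and 35.3 CPM at day 10, with 0.115 to 0.564 CPM in SHAM-GH (log2 change 0.03 ± 0.29, edgeR adjusted p = 0.953). Clec7a, the beta-glucan receptor dectin-1, was at 48.4 to 75.1 CPM and 33.9 to 62.2 CPM (log2 change −0.35, edgeR adjusted p = 0.334). Cst7, cystatin F, was at 7.17 to 9.75 CPM and 9.85 to 19.4 CPM, and both days lay above the 0.125 CPM that was its highest sham value. Gpnmb, a glycoprotein of lipid-laden phagocytes, was at 1221, 1140 and 711 CPM at day 3 and at 178, 359 and 701 CPM at day 10 (log2 change −1.32 ± 0.42, edgeR adjusted p = 0.0624). Lgals3, galectin 3 of phagocytes, was at 145, 156 and 102 CPM and 27.8, 56 and 95.3 CPM (log2 change −1.18, edgeR adjusted p = 0.0549). For both genes the 3 day 10 libraries differed from each other by more than 3 times, with PEL_10d-GH-3 the highest. Mmp12, macrophage elastase, was at 17.3, 30.1 and 15.8 CPM at day 3 and at 7.66, 17 and 110 CPM at day 10 (log2 change 1.09 ± 0.79, edgeR adjusted p = 0.367), and Atp6v0d2, a proton pump subunit of macrophages and osteoclasts, at 8.67 to 23.8 and 5.15 to 38.4 CPM. The change of Mmp12 was −0.78 without PEL_10d-GH-3, so its direction rested on that library.

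The lysosome list held 27 lower and 0 higher of 42 tested (median log2 change −0.55). In 31 of 42 every day 10 library lay below every day 3 library, beside 21% of all genes tested. The number lower was 19, 18 and 25 without PEL_10d-GH-1, 2 and 3, and 16, 18 and 33 without PEL_3d-GH-1, 2 and 3. The list stayed above sham, with 34 of 42 higher at day 10. Grn, progranulin, was at 522, 555 and 405 CPM at day 3 and at 149, 190 and 191 CPM at day 10 (log2 change −1.49 ± 0.13, edgeR adjusted p = 0.000488), against 41.6 to 53 CPM in SHAM-GH. Lgmn, the asparagine-specific protease legumain, fell by 1.23, Gusb, beta-glucuronidase, by 1.61, and Ctsb, cathepsin B, by 1.17 on the log2 scale. Of the 12 genes of Fc gamma receptors and NADPH oxidase, 10 were lower and all 12 remained above SHAM-GH (median log2 change from sham 4.05 at day 3 and 2.96 at day 10). Ncf1, the p47 subunit of the oxidase, went from 80.3, 73.4 and 54.1 CPM to 22.3, 23.1 and 26.6 CPM. Rac2, its small GTPase, fell by 1.26, Fcer1g, the signalling chain of Fc receptors, by 1.14, and Fcgr4, an activating receptor for IgG, by 1.76 on the log2 scale.

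Of 23 genes of lipid loading and efflux, 9 were lower and 2 higher, beside 10.8% and 4.81% of all genes. The number lower was 5 without PEL_10d-GH-1, PEL_10d-GH-2, PEL_3d-GH-1 or PEL_3d-GH-2. The number higher was 0 without PEL_10d-GH-2, and 1 without PEL_10d-GH-3 or any 1 day 3 library. Plin2, the coat protein of lipid droplets, was at 373, 372 and 237 CPM at day 3 and at 28.4, 42.4 and 61.7 CPM at day 10, and fell 7.44-fold (log2 change −2.90 ± 0.27, edgeR adjusted p = 0.000545). Apoc2, the activator of lipoprotein lipase, was at 15.2 to 25.4 CPM at day 3 and at 1.17 to 1.55 CPM at day 10, and had at most 0.125 CPM in SHAM-GH. Ch25h, cholesterol 25-hydroxylase, fell by 1.82 on the log2 scale. Lpl, lipoprotein lipase, was at 124, 137 and 65 CPM and 43.4, 61.8 and 110 CPM, a difference that did not pass (log2 change −0.60, edgeR adjusted p = 0.253). Of 25 genes of iron, heme and metallothioneins, 7 were lower and 0 higher (4 to 10 lower with 1 library left out, lowest without PEL_10d-GH-2, PEL_3d-GH-1 or PEL_3d-GH-2). Hmox1, heme oxygenase 1, was at 274, 300 and 155 CPM at day 3 and at 16.4, 26.9 and 33.3 CPM at day 10, a 9.55-fold fall (log2 change −3.26 ± 0.30, edgeR adjusted p = 0.000519), against 5.02 to 5.6 CPM in SHAM-GH. Ftl1, the ferritin light chain, fell by 1.43, and Txnrd1, thioredoxin reductase, and Mt2, a metallothionein, by 0.51 and 0.79 on the log2 scale.

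**Figure D3:**
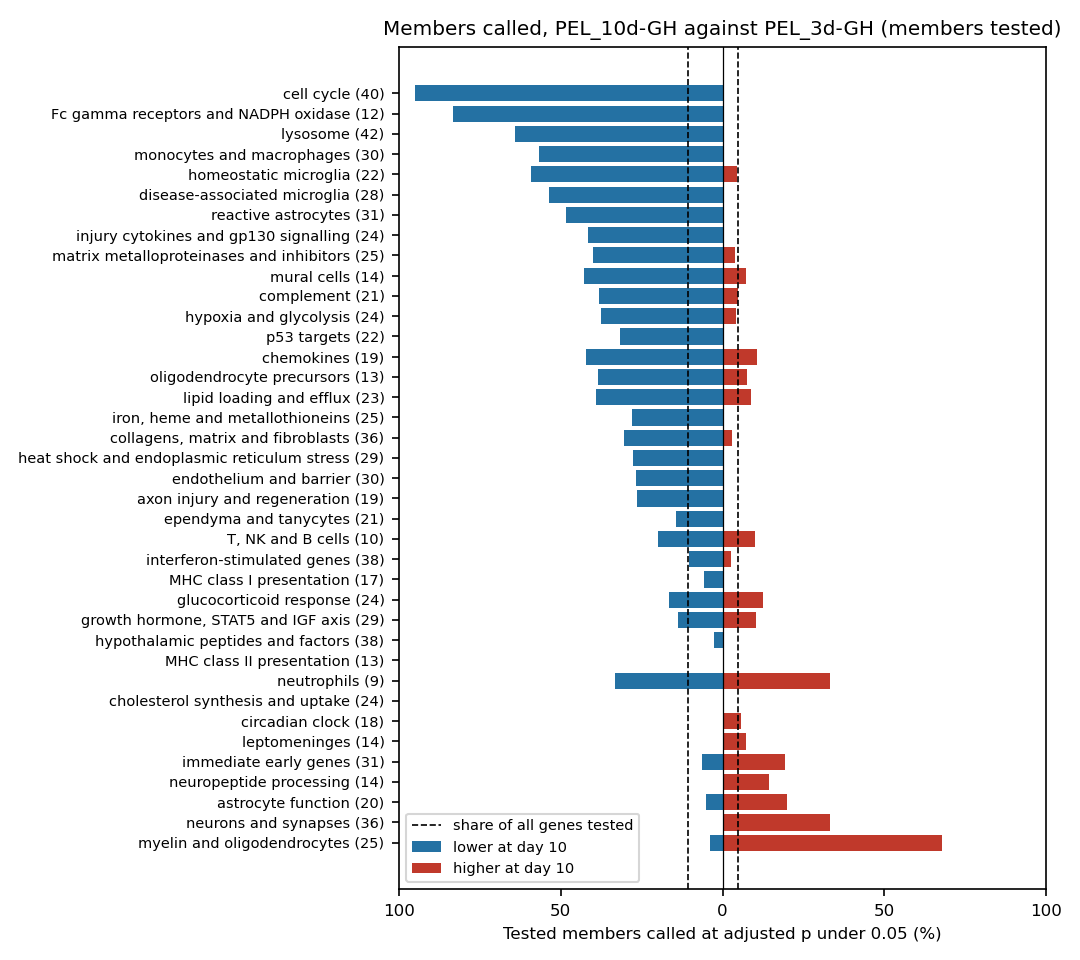
Percent of the tested members of 38 gene lists that were lower or higher at day 10 than at day 3 under GH (edgeR adjusted p under 0.05), with dashed lines at the share of all genes, 10.8% lower and 4.81% higher. The cell cycle list has the largest share lower and the myelin list the largest share higher among the lists drawn, and the MHC class II and cholesterol lists have no member called.

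Genes of reactive astrocytes fell in part. Of 31 genes of reactive astrocytes, 15 were lower and 0 higher (median log2 change −0.72), and the number lower was 8 without PEL_3d-GH-1. Nes, nestin, an intermediate filament of progenitors and newly reactive glia, was at 114, 124 and 62 CPM at day 3 and at 22.3, 25 and 25.6 CPM at day 10 (log2 change −2.05 ± 0.23, edgeR adjusted p = 0.00101). Its difference from SHAM-GH at day 10 did not pass (log2 change 0.22 ± 0.10, edgeR adjusted p = 0.109). Vim, vimentin, fell 3.64-fold, from 830, 947 and 497 CPM to 159, 220 and 249 CPM, and stayed above the 54.5 to 73.9 CPM of SHAM-GH. Tgm1, a transglutaminase, was at 48.2, 62.5 and 31.1 CPM and then at 3.63, 6.67 and 3.15 CPM, with 0.0644 to 0.25 CPM in SHAM-GH. Gfap, the astrocyte filament most used as a marker of gliosis, was at 2213, 2239 and 1522 CPM at day 3 and at 1188, 2012 and 1303 CPM at day 10. The days overlapped (log2 change −0.42 ± 0.21, edgeR adjusted p = 0.202), and day 10 was 2.32 ± 0.17 log2 units above SHAM-GH. Serpina3n, a protease inhibitor of reactive astrocytes, fell by 0.83 and Timp1, an inhibitor of metalloproteinases, by 2.24 on the log2 scale, while Lcn2, lipocalin 2, was at 6.83 to 21.3 and 10.4 to 16.4 CPM. Among 20 genes of astrocyte function, 4 were higher and 1 lower, with 1 higher without PEL_10d-GH-2 or PEL_3d-GH-1, and 0 lower in 5 of the 6 fits that left out 1 library. Ntsr2, a neurotensin receptor of astrocytes, rose from 65.3, 74.5 and 86.7 CPM to 127, 130 and 110 CPM, next to 110 to 118 CPM in SHAM-GH, and the glypican Gpc5 rose by 0.50 on the log2 scale.

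Of the matrix genes, most stayed above sham. Of 36 collagen, matrix and fibroblast genes, 11 were lower and 1 higher at day 10 (median log2 change −0.64), beside 10.8% and 4.81% of all genes. At day 10, 33 of 36 were above SHAM-GH. The number lower was 7, 4 and 14 without PEL_10d-GH-1, 2 and 3, and 5, 7 and 22 without PEL_3d-GH-1, 2 and 3. Tnc, tenascin C, a matrix protein made around wounds, was at 70.5, 87.4 and 41.1 CPM and then at 13.3, 13.5 and 14.3 CPM (log2 change −2.28 ± 0.24, edgeR adjusted p = 0.000865). Loxl2, which crosslinks collagen, fell by 2.18, and Fbln2, fibulin 2, by 1.84 on the log2 scale. Col1a1, the fibrillar collagen of fibroblasts, was at 211, 315 and 162 CPM and 65.6, 102 and 154 CPM (log2 change −1.10, edgeR adjusted p = 0.042), and Col4a1 of basement membranes fell by 1.17 on the log2 scale. Fn1, fibronectin, was at 673, 852 and 398 CPM and 232, 308 and 494 CPM, and did not pass (log2 change −0.90, edgeR adjusted p = 0.0777). Of 25 metalloproteinases and inhibitors, 10 were lower and 1 higher, with 6 lower without PEL_3d-GH-1. Mmp8 and Mmp9, proteases of neutrophils and macrophages, fell by 2.80 and 1.79 on the log2 scale.

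The counts of the vascular lists depended on single libraries. Of 30 endothelial and barrier genes 8 were lower, beside 10.8% of all genes. With 1 library left out the number was 0 to 14, lowest without PEL_3d-GH-1 and highest without PEL_3d-GH-3. Of 14 mural cell genes 6 were lower and 1 higher, the latter near the 4.81% of all genes. The number of mural cell genes lower was 0 to 7, with the same libraries at the ends. The endothelial receptors Tie1 and Kdr fell by 0.68 and 0.53 on the log2 scale, Aplnr, the apelin receptor, was at 5.72 to 8.87 CPM and then at 3.63 to 4.53 CPM, and the pericyte gene Rgs5 fell by 0.67.

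Among signals of the injury, 10 of 24 injury cytokine and gp130 genes were lower and 0 higher, beside 10.8% and 4.81% of all genes. The number lower was 6 without PEL_10d-GH-2 and 3 without PEL_3d-GH-1. Socs3, the feedback inhibitor induced by gp130 and other cytokine receptors, was at 26, 20.4 and 16 CPM and then at 5.79, 6.6 and 10.2 CPM, within the spread of SHAM-GH at 5.02 to 10.3 CPM. Il4ra, the interleukin 4 receptor chain, and Csf2rb, the shared chain of the GM-CSF receptor, fell by 1.10 and 1.27 on the log2 scale. Of 19 chemokine genes 8 were lower and 2 higher. Without PEL_3d-GH-1, 4 were lower and 0 higher, and 1 was higher without PEL_10d-GH-1, PEL_10d-GH-2 or PEL_3d-GH-2. Ccr1, a chemokine receptor of monocytes, was at 9.65, 13.3 and 6.28 CPM and then at 1.11, 0.818 and 1.15 CPM (log2 change −3.24 ± 0.32, edgeR adjusted p = 0.000599), the monocyte attractant Ccl2 was at 3.61 to 5.04 CPM and then at 0.585 to 1.6 CPM, and Ccl9 fell by 1.70 on the log2 scale. The 2 called higher were Ccl5, at 0.389 to 0.818 CPM and then 1.99 to 2.26 CPM, and Cxcl9, at 0.222 to 0.503 CPM and then 0.859 to 3.22 CPM, chemokines that attract T cells. The call of Ccl5 was lost without PEL_3d-GH-1, and that of Cxcl9 without any 1 library other than PEL_10d-GH-3. Of 19 axon injury and regeneration genes 5 were lower and 0 higher, with 3 lower without PEL_10d-GH-1, PEL_10d-GH-2 or PEL_3d-GH-1, and 5 higher without PEL_3d-GH-3. Sprr1a, a gene of regenerating neurons, was at 25.8, 10 and 18.9 CPM and then at 4.1, 6.16 and 6.07 CPM, and Tubb6, a tubulin, fell by 1.66 on the log2 scale. Atf3, a transcription factor of injured neurons and other cells, was at 34.1, 26.9 and 31.3 CPM and then at 9.01, 19.6 and 25.4 CPM, a difference that did not pass (log2 change −0.78, edgeR adjusted p = 0.103). Jun, its partner, was at 73.4 to 78.1 CPM and 61.6 to 78.4 CPM, and was above SHAM-GH at both days (log2 change 0.67 at day 3 and 0.58 at day 10).

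Most genes of antigen presentation were above sham at both days. Of 13 MHC class II genes 0 and of 17 MHC class I genes 1 was called between the days by edgeR, with median log2 changes of −0.13 and −0.08, beside 10.8% lower and 4.81% higher of all genes. Counts this small do not set these lists apart from other genes. In class II, 3 genes had an unadjusted p under 0.05 and DESeq2 called 1, and leaving out PEL_3d-GH-3 gave 2 lower in class II and 4 lower in class I, while class I had 0 lower without PEL_10d-GH-2, PEL_3d-GH-1 or PEL_3d-GH-2. Against SHAM-GH, 12 of the 13 class II genes were higher at day 3 (median 1.95) and 12 at day 10 (median 1.92), and 17 and 16 of the 17 class I genes. H2-Ab1, a class II beta chain, was at 21.1, 19.4 and 16.7 CPM at day 3 and at 18.5, 17.4 and 20 CPM at day 10, against 2.57 to 8.19 CPM in SHAM-GH (log2 change between days −0.04 ± 0.12, edgeR adjusted p = 0.84). Cd74, the invariant chain, was at 41.1 to 49.8 CPM and 49.9 to 65 CPM (log2 change 0.34, edgeR adjusted p = 0.0682). H2-K1, a class I heavy chain, was at 127, 126 and 95 CPM and at 133, 117 and 114 CPM (log2 change 0.06 ± 0.12), and B2m, its light chain, at 263 to 359 and 255 to 283 CPM. The 1 class I call was Psmb8, a subunit of the immunoproteasome (log2 change −0.63, edgeR adjusted p = 0.0152), and it was lost in the 3 fits with 0 lower.

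Of 38 interferon-stimulated genes 1 was higher and 4 lower between the days (median log2 change −0.09), a share near the 10.8% lower and 4.81% higher of all genes. The number lower was 1 without PEL_10d-GH-2 or PEL_3d-GH-1, and the number higher was 0 in 4 of the 6 fits that left out 1 library. Against SHAM-GH, 36 of 38 were higher at each day. The 1 that rose was Iigp1, an interferon-induced GTPase (log2 change 0.79, edgeR adjusted p = 0.0283), and those that fell included Ifi204, a DNA sensor, at 12.5 to 14.6 CPM and then 7.8 to 7.9 CPM, Ifi207 (−0.74) and Bst2, tetherin (−0.81). Of 21 complement genes 8 were lower and 1 higher, the latter near the 4.81% of all genes, and 20 were above SHAM-GH at day 10. C1qa and C1qc, chains of C1q made by microglia, fell by 0.80 and 0.94, and C5ar1, the receptor of the C5a fragment, by 2.63 on the log2 scale. C3, the central component, was at 37.1, 38.8 and 18.8 CPM and then at 38.1, 78.5 and 45.4 CPM (log2 change 0.77 ± 0.31, edgeR adjusted p = 0.123), and C4b at 137 to 182 and 155 to 220 CPM. C6, a component of the membrane attack complex, was at 0.389 to 0.44 CPM and rose to 1.23 to 3.03 CPM.

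The myelin list had the largest share of members higher at day 10. Of 25 genes of myelin and oligodendrocytes, 17 were higher and 1 lower at day 10 than at day 3 (median log2 change 0.56), and 24 of 25 were above SHAM-GH (median 0.72). At day 3 the median difference from SHAM-GH had been 0.10, with 11 higher and 2 lower. Enpp6, a marker of newly formed oligodendrocytes, was at 13.5, 11.4 and 9.89 CPM at day 3 and at 25.9, 29.6 and 29.2 CPM at day 10, against 8.31 to 9.14 CPM in SHAM-GH, a 2.42-fold rise between the days (log2 change 1.27 ± 0.13, edgeR adjusted p = 0.000755). Mbp, myelin basic protein, was at 2508, 2302 and 2819 CPM at day 3, close to its 2186 to 2545 CPM in SHAM-GH, and at 4273, 4486 and 4044 CPM at day 10, a 1.67-fold rise (log2 change 0.74 ± 0.10, edgeR adjusted p = 0.00233). Mag, the myelin-associated glycoprotein, rose by 0.90 ± 0.12, Myrf, the transcription factor of myelination, by 0.80 ± 0.10, Gjc3, a connexin of oligodendrocytes, by 0.67 ± 0.07, and Cldn11, the tight junction protein of myelin, by 0.63 ± 0.06 on the log2 scale. Bcas1, which marks oligodendrocytes as they begin to myelinate, was already high at day 3, at 249 to 316 CPM against 153 to 168 CPM in SHAM-GH, and was at 256 to 277 CPM at day 10. The myelin count was 13 to 18 higher whichever library was left out.

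Genes of their precursors fell in part. Of 13 genes of oligodendrocyte precursors, 5 were lower and 1 higher, beside 10.8% and 4.81% of all genes. With 1 library left out 1 to 7 were lower, fewest without PEL_3d-GH-1 and most without PEL_3d-GH-3. Gpr17, a receptor of precursors committed to differentiate, was at 328, 321 and 197 CPM at day 3 and at 155, 166 and 151 CPM at day 10 (log2 change −0.85 ± 0.17, edgeR adjusted p = 0.0114), against 79.3 to 87.3 CPM in SHAM-GH. Pdgfra, the receptor that drives precursor division, fell from 158, 173 and 135 CPM to 105, 120 and 109 CPM, next to 104 to 108 CPM in SHAM-GH. Vcan, the proteoglycan versican, fell by 1.06 on the log2 scale to the sham level (log2 change from SHAM-GH at day 10 −0.01).

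**Figure D4:**
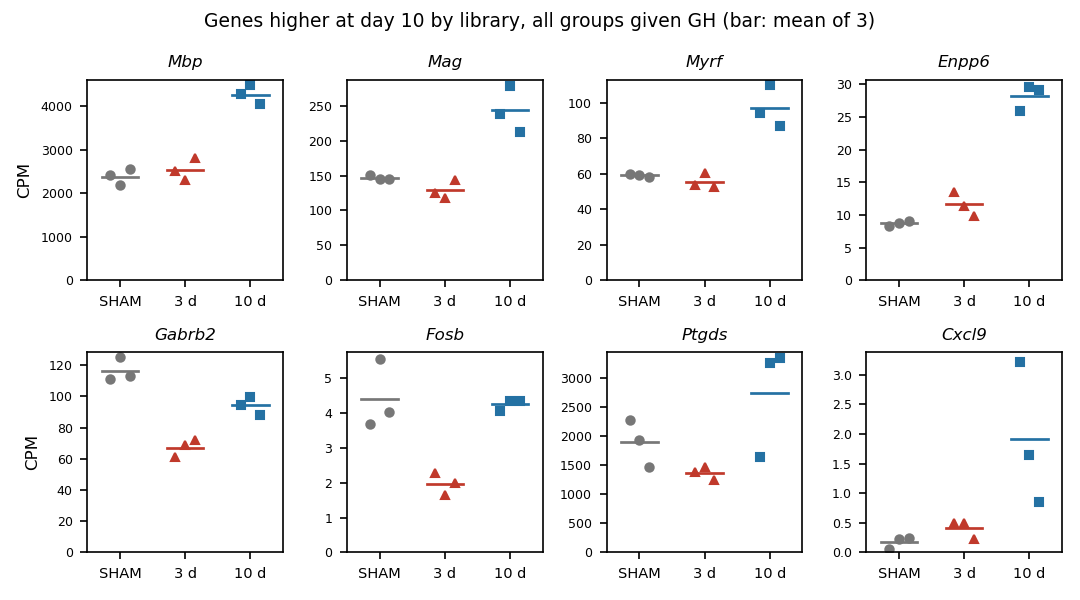
CPM of 8 genes in the 9 GH libraries on a linear axis; each point is 1 library. Mbp, Mag, Myrf and Enpp6 are above both other groups at day 10, and Gabrb2 is lowest at day 3 and stands between day 3 and sham at day 10.

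Neuronal genes rose in part. Of 36 genes of neurons and synapses, 12 were higher and 0 lower at day 10 than at day 3 (median log2 change 0.28), 31 had been lower than in SHAM-GH at day 3 (median −0.60), and 28 were still lower at day 10 (median −0.30). The number higher was 5, 4 and 9 without PEL_10d-GH-1, 2 and 3, and 2, 6 and 30 without PEL_3d-GH-1, 2 and 3. Gabrb2, the beta 2 subunit of the GABA-A receptor, was at 61, 68.6 and 71.7 CPM at day 3, at 94.5, 99.5 and 88.3 CPM at day 10 and at 111 to 125 CPM in SHAM-GH. The 3 groups did not overlap, and the rise between days was 0.48 ± 0.08 on the log2 scale (edgeR adjusted p = 0.00713). On the same scale Gria2, an AMPA receptor subunit, rose by 0.36, and Rbfox3, the NeuN antigen, by 0.45. Kcna1, an axonal potassium channel, was at 14.1 to 15.3 CPM at day 3 and 20 to 23.3 CPM at day 10, and its day 10 difference from SHAM-GH did not pass (log2 change −0.07, edgeR adjusted p = 0.605).

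Of 31 immediate early genes 6 were higher and 2 lower, beside 4.81% and 10.8% of all genes. The number higher was 1, 2 and 3 without PEL_10d-GH-2, PEL_3d-GH-1 and PEL_3d-GH-2. The number lower was 1 without PEL_10d-GH-1, PEL_10d-GH-2, PEL_3d-GH-1 or PEL_3d-GH-2, and 5 without PEL_3d-GH-3. Fosb was at 2.27, 1.64 and 2 CPM at day 3 and at 4.04, 4.34 and 4.35 CPM at day 10, within the 3.67 to 5.54 CPM of SHAM-GH (log2 change 1.09 ± 0.21, edgeR adjusted p = 0.0107). Egr1 rose by 0.68, Arc, which regulates synaptic receptors, by 0.86, and Nr4a1, an orphan nuclear receptor, by 0.90 on the log2 scale. Dusp6, a phosphatase that shuts off ERK, was at 34.4 to 45.3 CPM and fell to 19.3 to 24.2 CPM.

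The hormones of the neurons whose axons PEL cuts were not called between the days with all libraries in the fit. Avp, vasopressin, was at 6.58, 60.2 and 12.4 CPM at day 3 and at 54.9, 80.3 and 53.7 CPM at day 10, against 72.7 to 84.8 CPM in SHAM-GH. The day 3 libraries differed from each other by more than the groups did (log2 change 1.26 ± 0.63, edgeR adjusted p = 0.197). PEL_3d-GH-2 held the high day 3 value, and without that library the rise of Avp was 2.72 on the log2 scale and passed, while without PEL_3d-GH-1 it was 0.79 and did not. Oxt, oxytocin, was at 11.7, 28.9 and 36 CPM and then at 36.9, 36.3 and 24.8 CPM, against 36.3 to 66.1 CPM in SHAM-GH (log2 change between days 0.34 ± 0.34, edgeR adjusted p = 0.516). Gal, galanin, a neuropeptide induced in injured neurons, was the 1 of 38 hypothalamic peptide and factor genes called, beside 10.8% lower and 4.81% higher of all genes. It was at 109, 41.9 and 88.7 CPM at day 3 and at 30.9, 31.5 and 34 CPM at day 10, near the 26.5 to 27.7 CPM of SHAM-GH (log2 change −1.32 ± 0.29, edgeR adjusted p = 0.017). The call of Gal was lost without PEL_10d-GH-1, PEL_10d-GH-2 or PEL_3d-GH-1. Over the 6 fits that left out 1 library, the list had 0 to 2 lower (most without PEL_10d-GH-3 or PEL_3d-GH-3) and 0 to 5 higher (most without PEL_3d-GH-3). Sim1, a transcription factor of the paraventricular and supraoptic nuclei, was at 8.36 to 10.6 CPM and 12.2 to 14.2 CPM (log2 change 0.44, edgeR adjusted p = 0.0576). Of 14 neuropeptide processing genes 2 were higher, beside 4.81% of all genes. The number higher was 10 without PEL_3d-GH-3, and 1 without PEL_10d-GH-2, PEL_10d-GH-3, PEL_3d-GH-1 or PEL_3d-GH-2. Cpe, carboxypeptidase E, which trims peptide precursors, rose from 1406, 1560 and 1677 CPM to 2292, 2643 and 2340 CPM, above the 1724 to 1990 CPM of SHAM-GH, and Pcsk1, prohormone convertase 1, rose by 0.38 on the log2 scale.

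Most genes of cholesterol synthesis and uptake were below sham at both days. Of 24 tested, 0 passed between the days in edgeR or DESeq2 and with any library left out, and 3 passed at an unadjusted p of 0.05. At day 3 22 were lower than in SHAM-GH (median log2 change −0.67) and at day 10 22 were lower (median −0.76). Sqle, squalene epoxidase, was at 62.9, 70.1 and 74.6 CPM and at 64.8, 58.5 and 58.2 CPM, against 104 to 112 CPM in SHAM-GH, and Msmo1, a sterol demethylation enzyme, at 65.7 to 79 and 59.7 to 69.4 CPM, against 114 to 124 CPM. Ebp, a sterol isomerase, went the other way, at 21.1 to 22.4 CPM at day 3 against 14.7 to 16.4 CPM in SHAM-GH (log2 change 0.50, edgeR adjusted p = 0.00169), and was at 17.6 to 20 CPM at day 10 (0.28, 0.0552).

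Of 29 genes of the growth hormone, STAT5 and IGF axis, 3 were higher and 4 lower (median log2 change 0.04), beside 4.81% higher and 10.8% lower of all genes, with 0 to 4 higher and 1 to 6 lower when 1 library was left out, with 0 to 4 higher and 1 to 6 lower when 1 library was left out (fewest of each without PEL_3d-GH-1). Ghr, the GH receptor, was at 22.6 to 24 CPM at day 3 and 23 to 25.1 CPM at day 10 (log2 change 0.04 ± 0.09, edgeR adjusted p = 0.809). Socs2 and Cish, which GH induces through STAT5, were at 16.5 to 17.6 and 4.97 to 18.4 CPM, and at 8.17 to 12.4 and 4.78 to 10.7 CPM, and neither passed (log2 changes −0.65 and −0.56, edgeR adjusted p = 0.242 and 0.198). Stat5a was at 7 to 8.79 CPM and fell to 4.39 to 5.28 CPM. Igf1, made in this tissue by microglia among others, was at 77.9, 84.5 and 45 CPM and 22.1, 48.4 and 46.6 CPM (log2 change −0.83 ± 0.30, edgeR adjusted p = 0.092), and Igfbp7, an IGF-binding protein of vessels, fell by 0.94 on the log2 scale. Igf2 rose from 258, 325 and 193 CPM to 307, 874 and 769 CPM (log2 change 1.32, edgeR adjusted p = 0.0326). Among genes past the threshold with no overlap between groups and a mean of at least 1 CPM, Gh itself had the largest fitted rise. Gh is read here by level: it was at 0.0615, 0 and 0 CPM at day 3, at most 1 count a library, at 0.761, 6.54 and 4.24 CPM at day 10, and at 0.125 to 0.773 CPM in SHAM-GH. Prl, prolactin, another pituitary hormone, was at 0 to 0.307 CPM at day 3 and at 0.117, 4.46 and 28.5 CPM at day 10. The summed FPKM of 16 anterior pituitary markers was 158 to 174 at day 3 and 161 to 5687 at day 10, 1 of the 8 markers tested was called higher and 0 lower (0 higher without PEL_3d-GH-1 and 3 without PEL_10d-GH-1), and the part of pituitary transcripts in the level of Gh was not tested.

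The other large rises under the same limits as for Gh were of low level. Besides Gh, C6 and Cxcl9, the 12 largest under these limits were those of Cpz, Ngp, Shisa3, Ltf, Gimap3, Gm28035, Slc6a3, Card14 and S100a9. Ngp, Ltf and S100a9 are granule and cytosolic proteins of neutrophils, and S100a9 was at 0.983, 1.32 and 1.28 CPM at day 3 and at 9.24, 2.89 and 3.61 CPM at day 10, with PEL_10d-GH-1 the highest, as for Hba-a1. Of 9 neutrophil genes 3 were higher and 3 lower (1 higher without PEL_3d-GH-1 and 5 without PEL_10d-GH-3), of 8 blood genes tested 0 passed in edgeR or DESeq2 (3 at an unadjusted p under 0.05 in edgeR, and 3 called higher without PEL_3d-GH-3), and the summed FPKM of the blood list was 172 to 235 at day 3 and 211 to 396 at day 10. The part of blood in these rises was not tested. Cpz, a carboxypeptidase, was at 0.0556 to 0.189 CPM and 1.76 to 5.61 CPM, and Slc6a3, the dopamine transporter, at 2.52, 3.84 and 2.94 CPM and 11.9, 27.5 and 4.24 CPM, with 5.89 to 46.6 CPM in SHAM-GH.

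The remaining lists are given by their counts, beside 10.8% lower and 4.81% higher of all genes tested. Several of these counts lie near those shares, among them those with 1 gene higher of 14 or 18. Such counts do not set a list apart from other genes. Of 29 heat shock and endoplasmic reticulum stress genes 8 were lower and 0 higher (4 to 11 lower with 1 library left out), of 24 hypoxia and glycolysis genes 9 lower and 1 higher (4 to 9), and of 22 p53 targets 7 lower and 0 higher (2 to 11). All were fewest without PEL_3d-GH-1 and most without PEL_3d-GH-3. The lowest number was also reached without PEL_10d-GH-2 for heat shock and without PEL_3d-GH-2 for hypoxia. Ldha, lactate dehydrogenase A, went from 391, 386 and 359 CPM to 232, 227 and 233 CPM (log2 change −0.72 ± 0.06, edgeR adjusted p = 0.000486), Manf, a secreted stress-response factor, fell by 0.61, and Cdkn1a, the cell cycle inhibitor p21, by 0.82 on the log2 scale. Ndrg1, the 1 hypoxia list gene that rose, is also abundant in oligodendrocytes and was at 149 to 159 CPM at day 3 and 212 to 240 CPM at day 10. Of 24 glucocorticoid response genes 3 were higher and 4 lower, of 18 circadian clock genes 1 was higher (Per1, log2 change 0.40), of 21 ependyma and tanycyte genes 3 were lower, of 14 choroid plexus genes 1 was higher, and of 14 leptomeningeal genes 1 was higher (Ptgds, prostaglandin D synthase, at 1248 to 1462 CPM and then 1644 to 3337 CPM), with 7 higher without PEL_10d-GH-1 and 0 without PEL_10d-GH-2, PEL_10d-GH-3, PEL_3d-GH-1 or PEL_3d-GH-2. Of 10 T, NK and B cell genes 1 was higher and 2 lower. Markers of neighbouring regions gave 2 higher and 1 lower of 15 for hippocampus, 1 and 1 of 14 for thalamus, and 1 and 0 of 14 for striatum. With 1 library left out, the glucocorticoid list had 0 to 3 higher (0 without PEL_3d-GH-1) and 2 to 7 lower (7 without PEL_10d-GH-3), the circadian list 0 to 4 higher and the choroid plexus list 0 to 2 higher (both 0 without PEL_3d-GH-1), the ependymal list 2 to 6 lower and the T, NK and B cell list 0 to 2 higher. The hippocampal, thalamic and striatal lists had 3, 5 and 4 higher without PEL_3d-GH-3, and at most 1 without any other library.

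Without GH, the same comparison of days called 938 genes higher (6.33% of 14807 tested) and 1804 lower (12.2%), 2742 in all, and 1478, 1629 and 1333 without PEL_10d-2, PEL_3d-1 and PEL_3d-3. The 2 time courses share no library. Of the genes lower at day 10, 1250 were called in both, 78% of those with GH and 69.3% of those without, and of the genes higher at day 10, 379 were called in both, 53.2% and 40.4%. No gene was called in opposite directions, and across 14708 genes the log2 changes had Pearson's r = 0.88, a description across genes that are not independent replicates. The difference between the changes with and without GH passed for 0 of 15091 genes (0%) in edgeR's interaction test and for 0 in DESeq2, with 440 at an unadjusted p of 0.05 in edgeR. A p that misses the threshold does not show that the courses were the same.

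**Figure D5:**
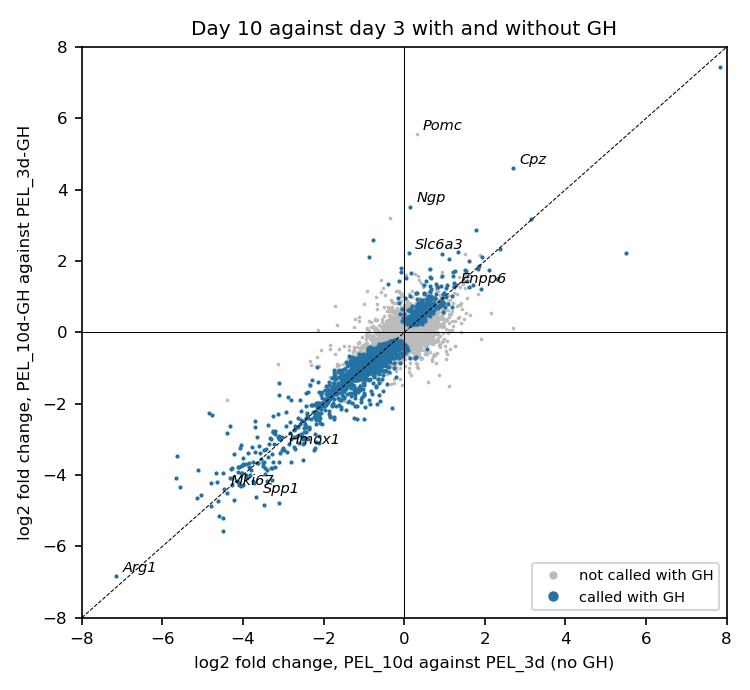
Log2 change from day 3 to day 10 without GH (horizontal axis) and with GH (vertical axis), 1 point for each gene tested in both. Points lie along the diagonal (Pearson's r = 0.88 across 14708 genes), with cell cycle genes, Arg1 and Spp1 at the lower left.

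The cell cycle list was lower in 40 of 40 without GH (median log2 change −3.48, next to −3.66 with GH), Mki67 changed by −4.46 (with GH −4.40), Arg1 by −7.14 (−6.84) and Spp1 by −3.67 (−4.62). Myelin genes were higher in 14 of 25 without GH (17 with GH) with medians of 0.34 and 0.56. Other lists had unlike counts: of 24 cholesterol genes 11 were lower without GH and 0 with GH, of 31 reactive astrocyte genes 23 and 15, and of neutrophil genes 6 of 10 were lower and 0 higher without GH, and 3 of 9 lower and 3 higher with GH. The difference between these counts was not tested. Of the genes described above, Lyz2, Avp, Lcn2, Gfap and Atf3 were among those that passed in 1 of the courses only. Lyz2 changed by −0.52 without GH (edgeR adjusted p = 0.493) and −1.65 with GH (0.0184), and Avp by 1.38 without GH (0.00113) and 1.26 with GH (0.197; 2.72 and past the threshold without PEL_3d-GH-2). Lcn2, lipocalin 2, changed by −2.15 without GH (0.0219) and 0.07 with GH (0.914), with an unadjusted edgeR interaction p of 0.00942. Gfap changed by −0.88 (0.000395) and −0.42 (0.202), and Atf3 by −1.22 (0.00571) and −0.78 (0.103). As the interaction passed for no gene, none of them is shown to differ. The lowest interaction p-values belonged to Ngp (unadjusted p = 0.00048), S100a9 (0.000798), Nkx2-1 (0.00101), Nxf3 (0.0012) and Efcab2 (0.00122), and all had edgeR adjusted p-values over 0.05. Ngp changed by 3.53 with GH and 0.15 without, and Nkx2-1 by −0.15 with GH and 0.60 without.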

How the data were processed

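RNA-seq libraries of mouse hypothalamus were prepared by the authors with a SMARTER mRNA-Seq kit, aligned with Hisat2 v2.0.5 to GRCm38 (mm10) and counted with featureCounts (v1.5.0-p3) per gene. The deposited table holds estimated counts (8.22% of values not whole) and FPKM values that the authors derived. Counts were rounded to whole numbers. FPKM was used only for sums over gene lists. Genes were named by identifier from a gene name table (22219 of 22274 matched, 55 did not), because the symbols in the file do not always match. Libraries were grouped by label.

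Each comparison was fitted on its own 6 libraries with edgeR 4.0.16 (R 4.3.3), TMM scaling, filterByExpr with a minimum count of 10 and the quasi-likelihood test, with a Benjamini-Hochberg adjusted p of 0.05. The interaction of day and GH was fitted on 12 libraries. Displayed CPM were scaled by TMM over the 18 hypothalamic libraries. The steps were tested on simulated data. Alternatives were DESeq2 size factors, DESeq2 1.42.0, a filter at a mean of 50 counts or none at all, a replicate block, 1 fit over all hypothalamic groups, and leaving out each library. The numbers of replicates did not pair the samples. No molecular identifiers were named in the sources, and the total counts per library bear on counting error only.

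The genes named were taken from the 12 largest rises and falls past the threshold with no overlap between groups and a mean of at least 1 CPM, the 3 members of lowest p of each gene list, a fixed set (among them Avp, Oxt, Gh, Igf1 and Gfap) and the 5 lowest interaction p-values. Other list members, and the 2 lists of genes in the closing section, were chosen after their values were seen. The comparison and the gene lists were chosen with earlier results of these data known. The hippocampal libraries were not used here. Symbols shared by 2 identifiers (Ddit3, Aldoa) were left out of lists. Promoter sequences are those of RefSeq on GRCm38.p6. A few genes that this rule names are not reported here.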

Additional observations from a re-analysis of the deposited data

How the results depend on the processing

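From day 3 to day 10 under GH, 2350 genes were called with DESeq2 size factors, 2910 by DESeq2, 2380 without a filter on low counts, 2176 at a mean count of at least 50 and 1759 in 1 fit over all hypothalamic groups, next to 2315. Leaving out 1 library gave 704 (without PEL_3d-GH-1) to 4435 (without PEL_3d-GH-3), and without GH 1333 to 2799. The fit over all groups called 1957 genes between PEL_10d-GH and SHAM-GH (1606 higher, 351 lower) and 1531 between the days without GH; it includes a sham library without GH that stood apart, and the cause was not tested. For PEL_3d-GH against SHAM-GH all counts lay within 1.5 times of 7681. The interaction called 0 genes in every alternative run. With the replicate number as a block, 1109 genes were called (189 higher, 920 lower). Same-numbered libraries of the 2 days had correlations of −0.23, 0.21 and −0.30, so the numbers were not taken as pairs.

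Of 218 genes, 216 kept direction and call with DESeq2 size factors, 204 with DESeq2, 176 in the fit over all groups (39 lost their call) and 195 with the block (20 lost it), which reversed Itgax (−0.02) and Atp6v0d2 (−0.16), neither called. Leaving out 1 library left 167 (without PEL_3d-GH-1, where 49 lost their call) to 194 (without PEL_3d-GH-3) the same, and turned the direction of genes that were not called, over log2 ranges of −0.07 to 0.13 for H2-K1, −0.21 to 0.32 for Itgax, −0.05 to 0.22 for C4b, −0.12 to 0.04 for H2-Ab1, −0.22 to 0.72 for Lcn2, −0.21 to 0.07 for Trh, −0.52 to 6.14 for Pomc, 0.0 to 0.07 for Ghr, −0.78 to 1.59 for Mmp12, −0.79 to 0.59 for Atp6v0d2 and −0.15 to 0.02 for Bcas1. Depth limits low genes: Gh had at most 1 count in any day 3 library.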

Other observations

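Outside the gene lists, 4 genes known from immune cells rose between day 3 and day 10 under GH. They were chosen after their values were seen, and the T, NK and B cell list as a whole had 1 of 10 genes higher and 2 lower (Cd28, log2 change −1.89, and Cd79b, −2.01). The monocyte and macrophage list had 0 higher and 17 lower of 30. Homeostatic microglia had 1 higher and 13 lower of 22, and disease-associated microglia 0 higher and 15 lower of 28. Lag3, an inhibitory receptor of T cells that microglia also express, was at 11.5, 11.1 and 11.7 CPM at day 3 and at 23.1, 31.9 and 24.7 CPM at day 10, against 1.73 to 2 CPM in SHAM-GH (log2 change 1.20 ± 0.14, edgeR adjusted p = 0.00117). Ms4a4b, a membrane protein of T cells, was at 0.0556 to 0.252 CPM and then at 0.973 to 1.93 CPM. Il2rb, a chain of the interleukin 2 receptor, was at 0.167 to 0.755 CPM and then at 1.32 to 2.26 CPM, and Slamf8, a surface protein of myeloid cells, at 0.43 to 0.556 CPM and then at 1.57 to 2.46 CPM. Ms4a4b, Il2rb and Slamf8 had at most 4, 12 and 10 counts in any day 3 library. Without GH the log2 changes were 1.90 for Lag3, 3.16 for Ms4a4b, 1.82 for Il2rb and 1.92 for Slamf8, and all 4 passed.

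Another 5 genes that rose, also chosen after their values were seen, are known from leptomeninges and fibroblasts among other cells. The leptomeningeal list had 1 of 14 genes higher and 0 lower, and the collagen, matrix and fibroblast list 1 of 36 higher and 11 lower. Ccn3, a matricellular protein, was at 22.6, 24 and 21.4 CPM and then at 49.8, 73.1 and 83.4 CPM (log2 change 1.59 ± 0.17, edgeR adjusted p = 0.000913). Npr3, the clearance receptor of natriuretic peptides, was at 7.68 to 8.36 CPM and then at 16.6 to 28.1 CPM, Slc47a1, an organic cation exporter, at 5.67 to 7.5 and 14.4 to 20.8 CPM, Bmp4 at 3.33 to 4.21 and 6.49 to 11.6 CPM, and Cyp26b1, which degrades retinoic acid, at 5 to 8.17 and 9.01 to 37.2 CPM. For all 5 genes PEL_10d-GH-1 was the lowest day 10 library, and it was also the lowest of the leptomeningeal list, whose summed FPKM was 1739 to 2134 at day 3, 2192 to 4507 at day 10 and 1916 to 2968 in SHAM-GH. The part of the meninges taken with the tissue in these rises was not tested. Stab1, a scavenger receptor of perivascular macrophages, and Lgals1, galectin 1, fell by 2.57 and 2.78 on the log2 scale.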
